A study of Mus musculus with 16 samples.

Results

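The immunoglobulin heavy chain constant genes Ighm, Ighd and Igha and the plasma cell genes Jchain, Mzb1, Sdc1 and Slamf7 were followed in peritoneal B1a cells and splenic B cells of mice with and without the lupus susceptibility segment Sle2c1. They were found by gene symbol in the annotation of the Affymetrix array, probe sets annotated to several genes included, which gave 25 of the 45101 probe sets, for 6 of the 7 genes. Ighm had 15 of them (4 shared with other immunoglobulin genes), Sdc1 had 4, Igha had 3, and Jchain, Mzb1 and Slamf7 had 1 each. No probe set carried the symbol Ighd, so that Ighd was not analysed here. In all, 19 probe sets (17 of them with 1 gene) passed the filter on low signal, described in the methods, and were tested: 10 of Ighm, 3 of Igha, 3 of Sdc1 and those of Jchain, Mzb1 and Slamf7.

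RNA came from 16 preparations, 4 biological replicates in each of 4 groups, all from mice aged 5 months: B1a cells of C57BL/6 mice (B6_B1a), B1a cells of B6.Sle2c1 mice (Sle2c1_B1a), and CD43-negative splenic B cells (Bs) of the same strains (B6_Bs and Sle2c1_Bs). B6.Sle2c1 is a congenic strain, C57BL/6 with a chromosome segment of the lupus-prone NZM2410 mouse that holds Cdkn2c, so that genes of that segment come from another strain background. B1a preparations were enriched by 2 h of adherence to remove macrophages, depletion with Thy1.2 and CD3ε antibodies and selection with a CD5 antibody, and held 80% B220int CD5+ cells. The splenic preparations held more than 90% B220hi cells. Selection against CD43 bears on these genes, because plasma cells, like B1a cells, carry CD43. The labels give neither the sex of the mice nor a processing day.

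Values are the authors' deposited score, a log-like signal whose base and scaling are not given in the sources used here. Differences are therefore in units of the score and are not fold changes, and the score of a probe set was not set against that of another as a measure of abundance. Scores at or below 0.495 units were treated as carrying no level and were raised to this value, called the floor. It is a choice of processing, described in the methods, and not a limit of detection. Where a group lay at the floor on all 4 arrays, a difference is a lower bound of its size. The arrays of a group correlated with each other at 0.784 to 0.968 over the tested probe sets. Median scores over all probe sets were highest on Sle2c1_B1a 4, B6_Bs 3 and Sle2c1_Bs 3 (1.06 to 1.12 units) and lowest on B6_Bs 1 (0.68), and results that changed without the first 3, called the 3 bright arrays, are given both ways. The B cell markers Ms4a1, Cd79a, Cd79b and Cd22 were above the floor on all 16 arrays, while Pax5 was at the floor on 10 of them. The 8 listed B1a genes, all tested, averaged 1.96 units in B6_B1a and 1.89 in Sle2c1_B1a, against 0.856 in B6_Bs and 0.838 in Sle2c1_Bs. Of these 8, Il10, Plscr1 and Ctla4 averaged 2.42 to 3.68 units in the B1a groups and at most 2.03 in the Bs groups. Cd5 itself was low, at 1.08 units in B6_B1a, and at the floor on 2 of 4 Sle2c1_B1a arrays.

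A B cell that has not met antigen places IgM and IgD on its surface, both spliced from 1 transcript of the rearranged variable segment with the neighbouring Ighm and Ighd exons. Class switching to IgA removes these and joins the variable segment to Igha at the far end of the locus. Plasma cells secrete antibody in quantity. Jchain encodes the joining chain that links IgM and IgA into polymers, Mzb1 is a chaperone of the endoplasmic reticulum that helps IgM to assemble, and Sdc1 (syndecan-1, CD138) and Slamf7 are surface proteins used to recognise plasma cells, though macrophages, epithelium or natural killer cells also carry one or the other. B1a cells are known as a main source of natural IgM and, for the gut, of IgA.

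Igha was at or near the floor in B1a cells and well above it in Bs cells of both strains. On the probe set 1421653_a_at the B6_Bs arrays read 3.49, 3.11, 3.30 and 3.03 units and the Sle2c1_Bs arrays 2.74, 2.75, 3.13 and 2.86. B6_B1a replicates 1 and 2 read 0.70 and 0.66, and the other 6 B1a arrays lay at the floor. Every Bs array was thus far above every B1a array, in both strains. B1a minus Bs was -2.65 units in B6 (SE 0.105, limma adjusted p = 2.47e-10) and -2.38 in Sle2c1 (adjusted p = 7.54e-10), the latter a lower bound in size. The probe sets 1425763_x_at and 1429381_x_at fell as well, by 2.68 and 2.22 units in B6 and by 2.20 and 1.53 in Sle2c1 (largest adjusted p = 0.000302). With no floor, 1425763_x_at did not pass in B6 (adjusted p = 0.0583) nor 1429381_x_at in Sle2c1 (0.111). These 3 probe sets target 1 gene and are not independent, and they correlated at 0.941 to 0.996 over the 16 arrays. All passed the filter mainly through the Bs arrays, in which they were high, and their p-values between cell types support nothing further.

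Igha is described as listed at the floor in B1a cells, not as absent, since a gene that every cell uses was listed there too. The single probe set of Rps27, a ribosomal protein gene, was at the floor on 6 of 8 B1a arrays (highest 1.27 units) and read 3.55 to 3.70 units on the Bs arrays. The part of such probe set behaviour in the Igha result was not tested. In preparations of many cells, fewer cells with a transcript and less of it per cell cannot be told apart. Among genes outside the set, the pattern over the 16 arrays most like that of Igha belonged to Dnajb11, a co-chaperone of the endoplasmic reticulum (Pearson r = 0.991), the transcription factor gene Insm2 (0.988) and Rps27 (0.985). These correlations, and the like ones below, describe 16 arrays that share the same 4 groups.

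**Figure D1:**
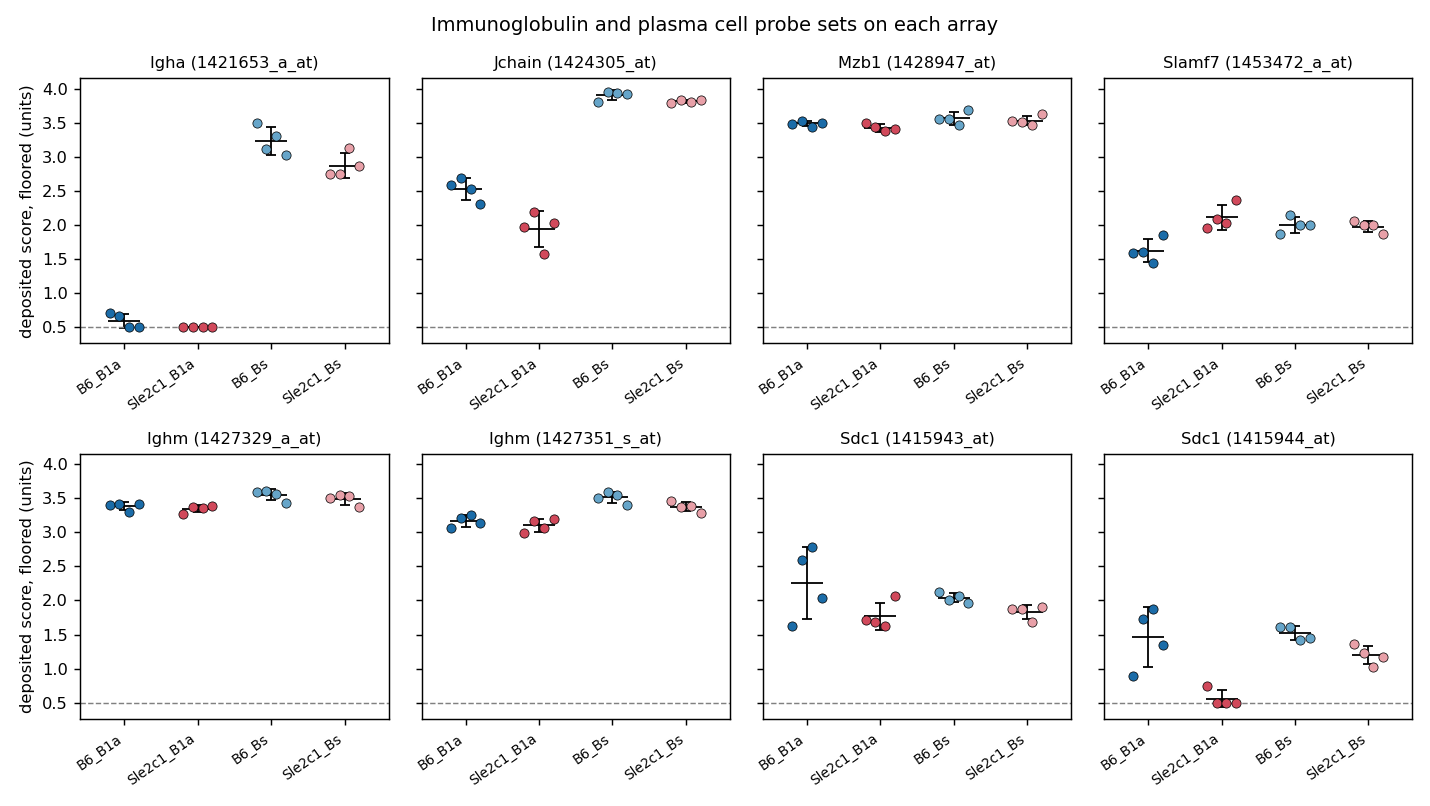
Deposited score (units, raised to the floor of 0.495, dashed line) of 8 probe sets on each of the 16 arrays; points are arrays, horizontal bars the group mean and error bars 1 SD (n = 4) of these raised scores. Igha lies at or near the floor in B1a cells and between 2.74 and 3.49 in Bs cells, Jchain is lower in B1a than in Bs cells and lowest in Sle2c1_B1a, and Mzb1 reads 3.37 to 3.69 throughout.

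Ighm signal was high in all groups and differed little between them on its strongest probe sets. On 1427329_a_at the B6_B1a arrays read 3.40, 3.42, 3.30 and 3.42 units, the Sle2c1_B1a arrays 3.27, 3.37, 3.36 and 3.38, the B6_Bs arrays 3.60, 3.61, 3.57 and 3.43 and the Sle2c1_Bs arrays 3.51, 3.55, 3.53 and 3.37. The B1a and Bs groups of B6 did not overlap, those of Sle2c1 did. B1a minus Bs was -0.17 units in B6 (95% interval -0.30 to -0.04, limma adjusted p = 0.0703) and -0.14 in Sle2c1 (-0.28 to -0.01, adjusted p = 0.102), neither past the threshold of 0.05. This probe set passed in both strains with a trended, robust fit (adjusted p = 0.00975 and 0.0201). On 1427351_s_at the B1a level fell, from 3.52 ± 0.085 (SD, n = 4) in B6_Bs to 3.17 ± 0.0835 in B6_B1a, a difference of -0.35 units (SE 0.0687, adjusted p = 0.00245), and in Sle2c1 by 0.28 units from 3.38 to 3.10 (adjusted p = 0.00942). That second call ended with median centring of the arrays (adjusted p = 0.0529). The strains differed by -0.04 and -0.06 units in B1a cells and by -0.06 and -0.14 in Bs cells on these probe sets, none past the test (adjusted p 0.68 to 1). The genes closest to Ighm in pattern were the carbonic anhydrase Car1 (r = 0.965), the splicing kinase Clk1 (0.933) and the phosphatase subunit Ppp1ca (0.933).

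The remaining 13 probe sets annotated to Ighm were weaker. Those of Ighm alone that were tested correlated with the strong ones at -0.231 to 0.797 over the 16 arrays. Their annotation does not say whether they read constant or variable sequence, although 4 of them are also assigned to variable segments. The 1425385_a_at signal was above 2 units on all B6_Bs arrays (2.23, 2.95, 2.81 and 2.68), and the Sle2c1_Bs arrays read 1.78, 0.84, 1.44 and 2.08. In B1a cells it was at or near the floor, with a highest value of 1.29. B1a minus Bs was -2.12 units in B6 (adjusted p = 2.26e-05, and 0.123 with no floor) and -0.84 in Sle2c1 (adjusted p = 0.0212). The Sle2c1 call ended without any 1 of Sle2c1_B1a 2, Sle2c1_B1a 3, Sle2c1_Bs 1 or Sle2c1_Bs 4 (highest adjusted p = 0.063) and without the 3 bright arrays (0.0746). Another, 1427756_x_at, was at floor level throughout B6_B1a and averaged 0.98 units in B6_Bs (-0.48, a lower bound in size, adjusted p = 0.00622, and 0.109 with the floor at 1 unit). Both 1425385_a_at and 1427756_x_at passed the filter mainly through Bs arrays, in which they were high. Their p-values between cell types support nothing further.

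One probe set went the other way. The signal of 1451947_at, assigned to Ighv14-2, Ighg3 and Ighm together, read 1.75, 1.74, 1.64 and 1.57 units on the B6_B1a arrays, whereas the 8 Bs arrays were all at the floor. It was at least 1.18 units higher in B6 B1a than in B6 Bs cells (adjusted p = 0.00834). This probe set was above the 40th percentile of its array on 6 arrays, all of B1a cells. It thus passed the filter only through the cells in which it was high, and the p-value supports nothing further. In Sle2c1_B1a it read 2.05 and 1.83 on replicates 2 and 3 and lay at the floor on replicates 1 and 4. B1a minus Bs in Sle2c1, at 0.72, did not pass (adjusted p = 0.0725). It did without replicate 1 or without replicate 4 (0.0163 and 0.0142), and without the 3 bright arrays (0.0342). Which of its 3 genes gave this signal cannot be told from the probe set. The Ighm probe set 1425247_a_at read 0.72, 1.16, 1.26 and 1.72 units in Sle2c1_B1a and was at the floor in Sle2c1_Bs, a difference of 0.72 that fell short of the threshold (adjusted p = 0.0536) and passed with the 8 Sle2c1 arrays alone (0.0341). The 6 probe sets that failed the filter (5 of Ighm and 1 of Sdc1) were above the 40th percentile of their array on 3 arrays at most.

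**Figure D2:**
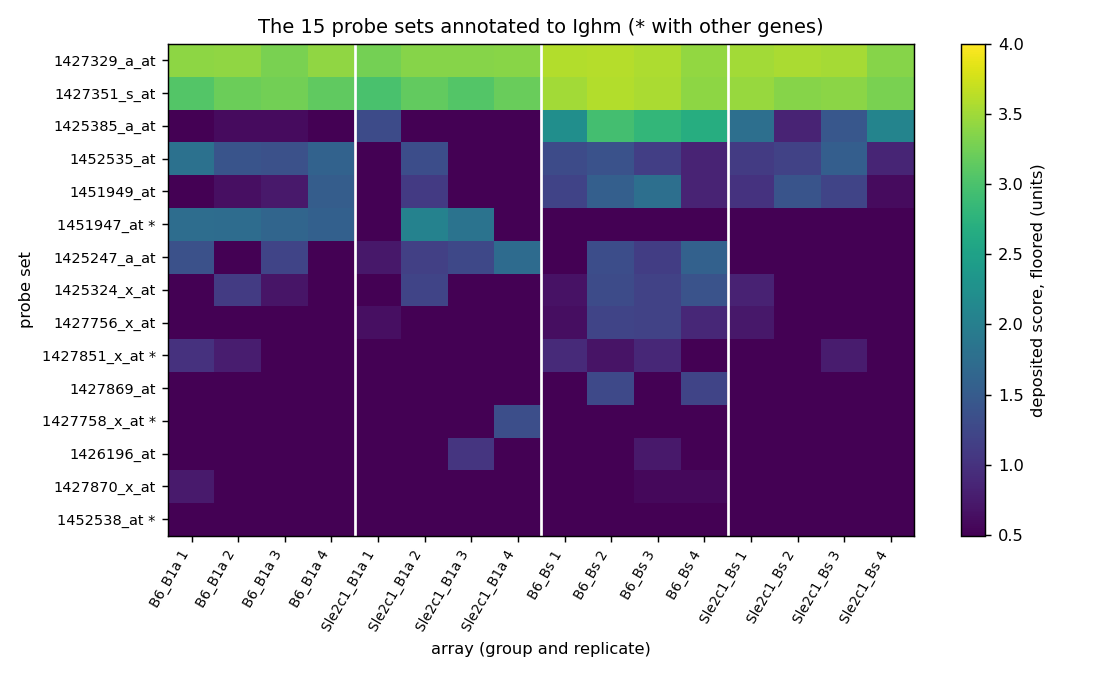
Deposited score (colour, units, from the floor of 0.495 upward) of the 15 probe sets annotated to Ighm (rows, ordered by mean, asterisks for those shared with other genes) on the 16 arrays (columns, white lines between groups). The 2 strongest rows read 2.99 to 3.61 on all arrays, 1425385_a_at is bright in B6_Bs, and 1451947_at is above the floor in B1a arrays alone.

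Jchain was much lower in B1a than in splenic B cells, and lower still in Sle2c1 B1a cells. Its probe set read 2.58, 2.68, 2.53 and 2.31 units on the B6_B1a arrays and 1.96, 2.19, 1.57 and 2.03 on those of Sle2c1_B1a. The B6_Bs arrays read 3.80, 3.95, 3.94 and 3.92, and the Sle2c1_Bs arrays 3.79, 3.83, 3.80 and 3.83. The order was Sle2c1_B1a, B6_B1a, Sle2c1_Bs, B6_Bs from low to high, with no overlap except between the Bs groups. B1a minus Bs was -1.38 units in B6 (SE 0.111, limma adjusted p = 5.49e-07) and -1.88 in Sle2c1 (adjusted p = 1.63e-08). In B1a cells Sle2c1 minus B6 was -0.59 (SE 0.111, adjusted p = 0.00777, exact permutation p = 0.0286, the smallest that 70 arrangements can give). This call ended when the 8 B1a arrays were fitted alone (adjusted p = 0.121). In Bs cells the strains differed by -0.09 (95% interval -0.33 to 0.15, adjusted p = 1). The strain differences of the 2 cell types differed by -0.50 units, which did not pass (adjusted p = 0.331). Most like Jchain in pattern were the mitochondrial gene Chchd10 (r = 0.987), the lysosomal protein Laptm5 (0.985) and the B cell receptor inhibitor Cd72 (0.983).

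Because the joining chain is built into secreted IgM, Jchain was also compared with Ighm on the same array, as the difference of the scores of 1424305_at and 1427329_a_at. This difference has no absolute meaning, but its change between groups shows that the probe sets did not move alike. In B1a cells it was -0.86 ± 0.17 units (SD, n = 4) for B6 and -1.41 ± 0.265 for Sle2c1, and in Bs cells 0.35 ± 0.119 for B6 and 0.323 ± 0.0918 for Sle2c1. The cell type difference (B1a minus Bs) was -1.21 units in B6 and -1.73 in Sle2c1, and Sle2c1 minus B6 was -0.55 in B1a cells (exact two-sided permutation p = 0.0286 for each, n = 4 a group). The Bs groups differed by -0.03 units (exact permutation p = 0.714).

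**Figure D3:**
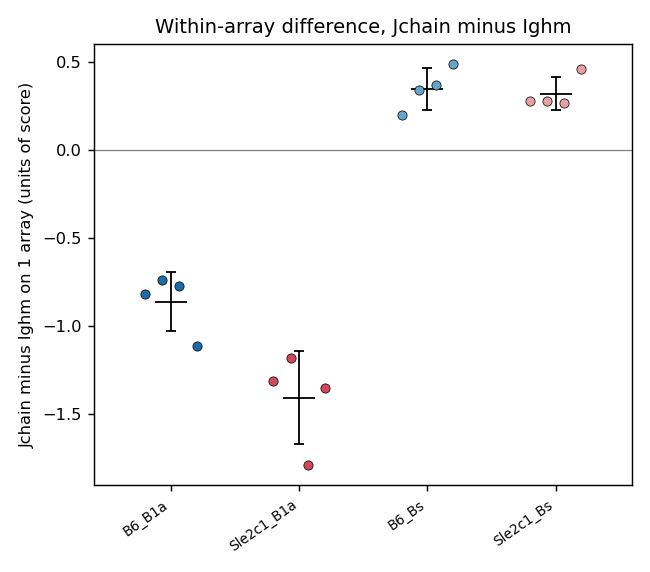
Difference of the deposited scores of Jchain (1424305_at) and Ighm (1427329_a_at) on each array (y axis, units), by group, with the group mean and 1 SD (n = 4). The 8 B1a arrays lie between -1.79 and -0.74 and the 8 Bs arrays between 0.20 and 0.49.

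Of the promoters of these genes, those of Jchain and Sdc1 are shown. Both genes had a probe set that was lower in Sle2c1 than in B6 B1a cells, and for both a window at the gene start was available. They run from 250 bases before to 50 bases after the gene start, in RefSeq's GRCm38.p6 assembly, at chr5:88527848-88528147 (minus strand) and chr12:8771146-8771445 (plus strand). Capitals mark matches to 4 motifs on either strand: the octamer of OCT factors (ATGCAAAT), the PU box (GAGGAA), an E box (CACCTG) and a pair of GAAA blocks 2 bases apart, as interferon response elements hold.
Jchain: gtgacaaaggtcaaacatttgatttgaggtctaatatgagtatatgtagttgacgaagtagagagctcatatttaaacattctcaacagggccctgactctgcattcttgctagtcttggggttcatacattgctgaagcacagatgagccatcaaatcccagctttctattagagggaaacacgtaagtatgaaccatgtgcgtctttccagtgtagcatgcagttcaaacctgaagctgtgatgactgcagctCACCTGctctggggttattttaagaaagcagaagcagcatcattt
Sdc1: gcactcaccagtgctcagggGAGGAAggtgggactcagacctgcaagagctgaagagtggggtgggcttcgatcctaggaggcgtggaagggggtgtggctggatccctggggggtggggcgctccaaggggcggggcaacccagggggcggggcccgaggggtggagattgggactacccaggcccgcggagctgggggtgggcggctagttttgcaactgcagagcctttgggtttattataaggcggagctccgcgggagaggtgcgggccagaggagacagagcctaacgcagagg
Jchain held 1 match, to the E box, just after the gene start, and Sdc1 held 1 match, to the PU box. Of 32851 promoter windows of this length, 20.2% held the E box, 28.3% the PU box, 3.44% the GAAA pair and 1.74% the octamer. A match is no evidence of binding. No window was available for Igha, Ighm or Mzb1, and that of Slamf7 lay inside the gene. Windows of the other members were not used here.

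Slamf7, a receptor of the SLAM family, moved against Jchain between the strains. It read 1.58, 1.60, 1.44 and 1.85 units on the B6_B1a arrays, and 1.95, 2.09, 2.02 and 2.37 on those of Sle2c1_B1a. Readings of B6_Bs were 1.86, 2.14, 1.99 and 1.99, and of Sle2c1_Bs 2.05, 1.99, 1.99 and 1.86. B6_B1a was the low group and did not overlap any other, while the other 3 groups overlapped each other. In B1a cells it rose by 0.49 units in Sle2c1 (SE 0.102, limma adjusted p = 0.0155, exact permutation p = 0.0286). The call ended without B6_B1a 3 (adjusted p = 0.0531), after median centring (0.0716), without the 3 bright arrays (0.0511) and with the 8 B1a arrays alone (0.121). B1a minus Bs was -0.38 units in B6 (adjusted p = 0.0189), a call that ended without B6_B1a 3 or B6_Bs 2 (highest adjusted p = 0.0647) and with quantile normalization (0.0576), and 0.14 in Sle2c1 (adjusted p = 0.36). In Bs cells the strains differed by -0.02 (95% interval -0.24 to 0.20, adjusted p = 1). The difference of the strain differences was 0.51 units, not past the test (adjusted p = 0.237). Natural killer cell markers, of which 4 of 6 were tested, averaged 0.495 to 0.621 units on the B6_B1a arrays and 0.531 to 0.805 on the Sle2c1_B1a arrays, with Nkg7 and Gzma at the floor on all B6_B1a arrays. On the Bs arrays they averaged 0.99 to 1.58 units in B6 and 0.844 to 1.33 in Sle2c1. In each strain 2 of these 4 were lower in B1a cells (10.7% of all probe sets in B6 and 13.7% in Sle2c1). All 4 markers of plasmacytoid dendritic cells were tested and averaged 1.81 to 2.17 units on the B6_B1a and 1.83 to 2.16 on the Sle2c1_B1a arrays. They averaged 1.61 to 1.81 on the B6_Bs and 1.70 to 1.75 on the Sle2c1_Bs arrays. Whether such cells had a part in the Slamf7 results was not tested. The genes most like Slamf7 were Macrod2 (r = 0.83), the zinc finger gene Zfp983 (0.827) and the amino acid transporter Slc7a12 (0.816).

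Sdc1 was uneven between the B6_B1a arrays and lower in Sle2c1_B1a on 1 of 3 tested probe sets. On 1415944_at the B6_B1a arrays read 0.89, 1.73, 1.88 and 1.35 units, and in Sle2c1_B1a replicate 1 read 0.74 and the other 3 lay at the floor. The B6_Bs arrays read 1.61, 1.61, 1.42 and 1.45 and the Sle2c1_Bs arrays 1.36, 1.23, 1.03 and 1.17. In neither cell type did the strains overlap. Sle2c1 minus B6 was -0.91 units in B1a cells (SE 0.165, limma adjusted p = 0.0059, exact permutation p = 0.0286) and -0.33 in Bs cells (adjusted p = 1). The B1a call ended with the floor at 1 unit (adjusted p = 0.117), with no floor (0.251) and with the 8 B1a arrays alone (0.104). B1a minus Bs on this probe set was -0.64 units in Sle2c1 (adjusted p = 0.0111, and 0.362 with the floor at 1 unit) and -0.06 in B6 (adjusted p = 0.843).

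The other tested Sdc1 probe sets gave the same sign and did not pass. On 1415943_at the B6_B1a arrays read 1.62, 2.59, 2.79 and 2.03 units and the Sle2c1_B1a arrays 1.71, 1.69, 1.62 and 2.06, overlapping groups that differed by -0.49 (adjusted p = 0.208). On 1437279_x_at the difference was -0.57 (adjusted p = 0.138). Both passed without B6_B1a 1 (adjusted p = 0.027 and 0.0354). The 3 probe sets target 1 gene and correlated at 0.738 to 0.945. Macrophage markers, all 12 tested, averaged 1.96, 1.35, 1.95 and 2.50 units on B6_B1a replicates 1 to 4 and 0.969 to 1.03 on the Sle2c1_B1a arrays, where Csf1r, Timd4, C1qb, C1qc, Apoe and Marco lay at the floor. Sdc1 was highest on B6_B1a 2 and 3, while macrophage signal was highest on replicate 4 and lowest on replicate 2, and the part of macrophages in the strain difference was not tested. Markers of mesothelium and epithelium, of which 3 of 5 were tested, averaged 1.08, 1.21, 1.54 and 1.15 units on B6_B1a replicates 1 to 4, the same order as 1415944_at, and 0.945, 1.06, 0.983 and 1.48 on the Sle2c1_B1a arrays. Of these, Krt8 averaged 1.60 units for B6 and 1.14 for Sle2c1 B1a cells (adjusted p = 0.193), with every Bs array at the floor, and the part of such cells was not tested. Most like Sdc1 in pattern were the transaminase Bcat1 (r = 0.871), Shtn1 (0.831) and the gap junction gene Gja1 (0.809).

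Mzb1 read much the same in the 4 groups and passed in no comparison. It read 3.48, 3.53, 3.44 and 3.50 units on the B6_B1a arrays, and 3.50, 3.43, 3.37 and 3.40 on those of Sle2c1_B1a. Splenic B cells gave 3.56, 3.55, 3.46 and 3.69 in B6 and 3.52, 3.51, 3.47 and 3.62 in Sle2c1. Every group overlapped every other. The B1a minus Bs difference was -0.08 in B6 (95% interval -0.21 to 0.05, limma adjusted p = 0.401) and -0.10 in Sle2c1 (-0.23 to 0.02, adjusted p = 0.218). Between strains it differed by -0.06 in B1a cells (-0.19 to 0.07) and -0.03 in Bs cells (-0.16 to 0.09). The widest of these limits, -0.23, is smaller in size than the strain and cell type differences of Jchain that passed. Smap1 (r = 0.957), Pkig (0.943) and Ywhab (0.928) were most like it.

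Counted together, 9 of the 19 probe sets passed between B1a and Bs cells in B6, against 19.9% of all 35032 tested. Of these, 8 were lower in B1a cells (10.7% of all) and 1 was higher (9.21% of all), the latter being 1451947_at. In Sle2c1, 7 of 19 passed, against 24.8% of all, with 7 lower (13.7% of all) and 0 higher (11.1% of all) in B1a cells. The groups did not overlap for 10 probe sets in B6 (22.1% of all) and for 7 in Sle2c1 (24.7% of all). The median difference was -0.35 units in B6 and -0.17 in Sle2c1, against -0.028 and -0.026 over all tested. Several of these probe sets, those of Igha and 1451947_at among them, passed the filter mainly or only through the group in which they were high and had to differ. The counts thus describe the set and support nothing further. The comparisons within the 2 strains share no arrays with each other, but each shares arrays with the comparisons of the strains.

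Between the strains, 4 of 19 probe sets passed in B1a cells (3.51% of all): those of Jchain, Sdc1 (1415944_at) and Ighm (1452535_at), which were lower in Sle2c1 (1.64% of all), and that of Slamf7, which was higher (1.88% of all). The groups did not overlap for the same 4, against 8.36% of all. The weak Ighm probe set 1452535_at read 1.80, 1.41, 1.37 and 1.60 units in B6_B1a, while in Sle2c1_B1a replicate 2 read 1.32 and the others lay at the floor (-0.84, adjusted p = 0.028). That call ended without any 1 of B6_B1a 1, B6_B1a 2, B6_B1a 4, Sle2c1_B1a 1, Sle2c1_B1a 3 or Sle2c1_B1a 4 (highest adjusted p = 0.0899), with no floor (0.345), with the floor at 1 unit (-0.465, adjusted p = 0.0927) and without the 3 bright arrays (0.0711). With the 8 B1a arrays alone, none of these 4 passed in limma, against 387 higher and 243 lower of all 35032 tested. Beside these results, 8 of 12 macrophage markers and 1 of 6 tested T cell markers were lower in Sle2c1_B1a than in B6_B1a, and their part in them was not tested.

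In Bs cells 0 of 19 probe sets passed between the strains in limma, against 0.131% of all (0.108% higher and 0.0228% lower). At an unadjusted limma p under 0.05 there were 6 of 19, against 1209 of all 35032 tested. The median difference was -0.28 units, against 0.01 over all tested. Groups did not overlap for 4 probe sets (2.34% of all), the 3 of Sdc1 and 1425385_a_at of Ighm, which had the largest difference at -1.13 units (95% interval -1.65 to -0.61, adjusted p = 0.155, and 0.518 with the arrays paired by number). Igha differed by -0.36 units on 1421653_a_at (-0.59 to -0.14, adjusted p = 0.626), with overlapping groups. With the Bs arrays paired by number it was lower in Sle2c1 in 4 of 4 pairs (adjusted p = 0.64), as were Jchain (0.979) and the strong Ighm probe sets (0.953 and 0.908). In all, 11 of 19 probe sets were lower in 4 of 4 pairs and 0 were higher, against 4.59% and 7.24% of all tested. The 11 are the 3 of Igha, the 3 of Sdc1, that of Jchain and several of Ighm, so that most share a gene with others. All were read on the same arrays and are not independent. The interaction of strain and cell type had 8 of 19 at an unadjusted limma p under 0.05, against 2717 of all 35032 tested. After adjustment 0 of 19 passed (0.462% of all), so that no strain difference was shown to be particular to a cell type.

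**Figure D4:**
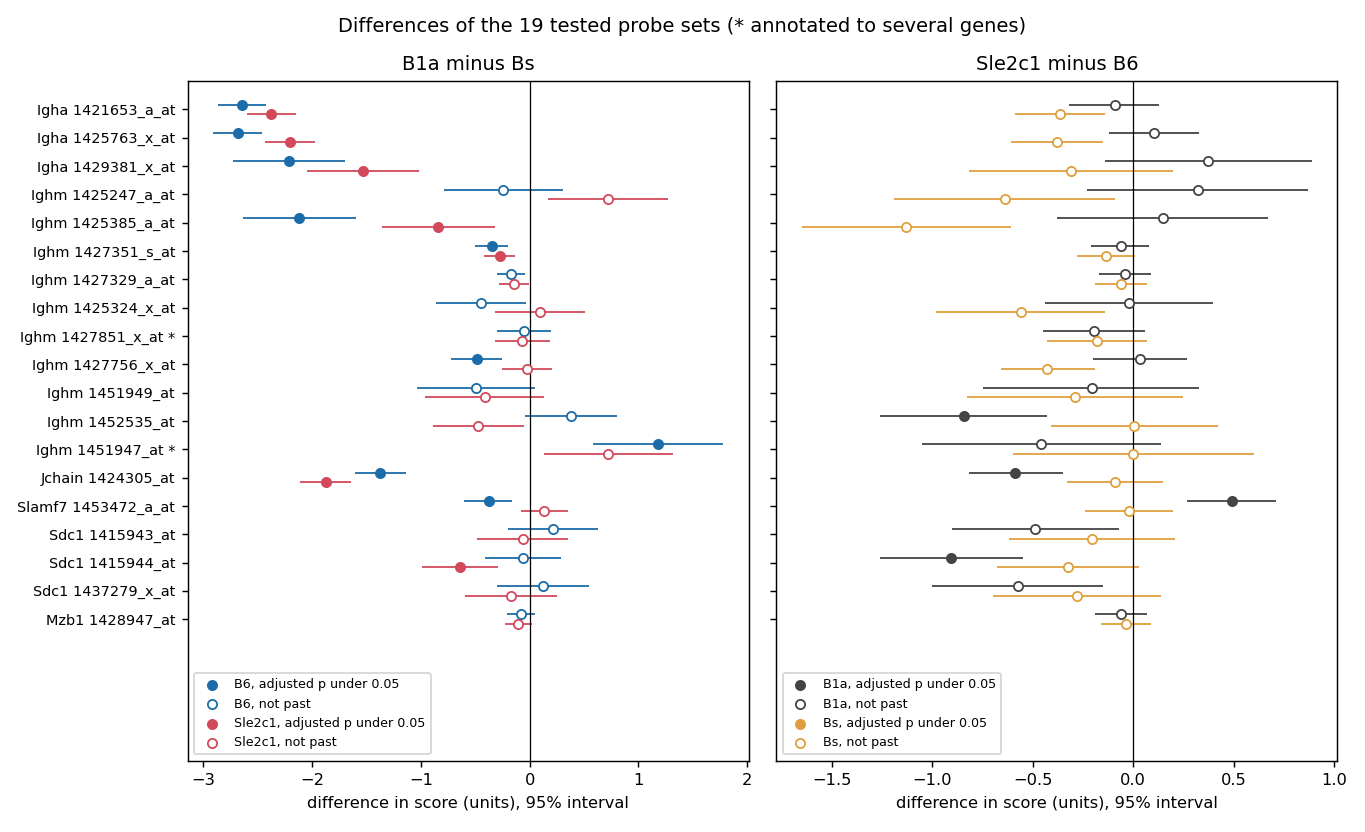
Differences in deposited score (x axis, units, with 95% intervals) of the 19 tested probe sets between cell types (left, in each strain) and between strains (right, in each cell type); filled points passed at an adjusted p under 0.05. The Igha and Jchain points all lie between -2.68 and -1.38 in the left panel, and the filled points of the right panel are those of Jchain, Slamf7, Sdc1 (1415944_at) and Ighm (1452535_at) in B1a cells.

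Among regulators of the plasma cell programme, Prdm1, which encodes Blimp-1 and drives plasma cell differentiation, was higher in B1a cells, at 2.89 units in B6_B1a against 1.03 in B6_Bs (1.86, limma adjusted p = 8.93e-07) and 2.98 against 1.32 in Sle2c1 (1.66, adjusted p = 2.56e-06). Zbtb20, a factor that helps plasma cells to last, rose by 0.66 and 0.75 units in B1a cells (largest adjusted p = 6.03e-06). Irf4, which acts with Blimp-1, rose by 0.31 in B6 (adjusted p = 0.00484) and differed by 0.09 in Sle2c1 (adjusted p = 0.33). The receptor Tnfrsf13b (TACI) fell by 0.18 and 0.27 units in B1a cells (adjusted p = 0.0471 and 0.00388). Of 10 listed regulators and receptors, 8 were tested, and 3 were higher and 1 lower in B1a cells in either strain (9.21% and 10.7% of all probe sets in B6, 11.1% and 13.7% in Sle2c1), with a median difference of 0.03 in B6 and 0.10 in Sle2c1 (-0.007 over all named genes in each). Cd28, a costimulatory receptor of T cells and plasma cells, was the other higher gene in Sle2c1 (1.07 units against the floor on all Bs arrays, adjusted p = 0.038). It was above the floor in Sle2c1_B1a alone, on all arrays but 1, and the p-value supports nothing further. Cd28 also stands in the list of T cell markers. None of the 8 passed between the strains in limma in either cell type. At an unadjusted limma p under 0.05 there were 2 in B1a and 0 in Bs cells, against 6035 and 1209 of all 35032 probe sets.

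All 20 listed genes of the antibody secretion machinery were tested. In B1a cells 5 were higher and 1 lower in B6 (9.21% and 10.7% of all probe sets), and 5 higher and 3 lower in Sle2c1 (11.1% and 13.7%), with median differences of 0.09 and -0.02. Tent5c, a poly(A) polymerase that lengthens immunoglobulin transcripts, rose by 1.24 units in B6 B1a cells (from 2.08 to 3.33, adjusted p = 1.04e-07) and by 1.67 in Sle2c1 (adjusted p = 4.04e-09). Dnajb9, a co-chaperone, rose by 0.32 and 0.30 (largest adjusted p = 0.00106), and the translocon subunit Ssr4 by 0.26 and 0.28 (largest adjusted p = 0.0104). Sdf2l1, another chaperone of the endoplasmic reticulum, fell by 0.81 and 0.91 units (largest adjusted p = 0.00958). None of the 20 passed between the strains in limma. At an unadjusted limma p under 0.05 there were 4 in B1a and 2 in Bs cells, against 6035 and 1209 of all 35032 probe sets.

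Of the genes that process immunoglobulin transcripts, 5 of 6 were tested. In B1a cells 1 was higher and 2 lower in B6 (9.21% and 10.7% of all probe sets). In Sle2c1 1 was higher and 1 lower (11.1% and 13.7%), and the median differences were -0.49 and -0.26. Zfp318, which is needed for the long transcript that carries IgD, fell by 0.68 units in B6 and by 0.71 in Sle2c1 B1a cells (largest adjusted p = 1.17e-06), from 3.10 and 3.06 in Bs cells. Ell2, an elongation factor that favours the secreted form of the heavy chain, rose by 0.21 and 0.23 (largest adjusted p = 0.0064). Its partner Eaf2 fell by 0.53 in B6 (adjusted p = 0.0417) and differed by -0.26 in Sle2c1 (adjusted p = 0.298). Hnrnpll, a splicing factor of plasma cells, differed by -0.49 and -0.43 (adjusted p = 0.0875 and 0.116).

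Of 9 listed genes of the B cell receptor and of B cell identity 8 were tested. In B1a cells 6 were lower in B6 (10.7% of all probe sets) and 7 in Sle2c1 (13.7%), with none higher, and median differences of -0.23 and -0.24. Spib, a transcription factor of B cells, fell by 0.33 and 0.68 units, and Bach2, a repressor of Prdm1, by 0.37 and 0.48 (largest adjusted p = 0.0152). Cd79b, the partner of surface immunoglobulin, fell by 0.32 and 0.49, and Ms4a1 (CD20) by 0.17 and 0.23 (largest adjusted p = 0.0256). Spib was also lower in Sle2c1 than in B6 B1a cells (-0.34, adjusted p = 0.0471). Of 9 other constant region genes, Ighg3 alone had a tested probe set of its own, and it passed in no comparison (B1a minus Bs 0.05 in B6 and -0.07 in Sle2c1, smallest adjusted p = 0.273).

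**Figure D5:**
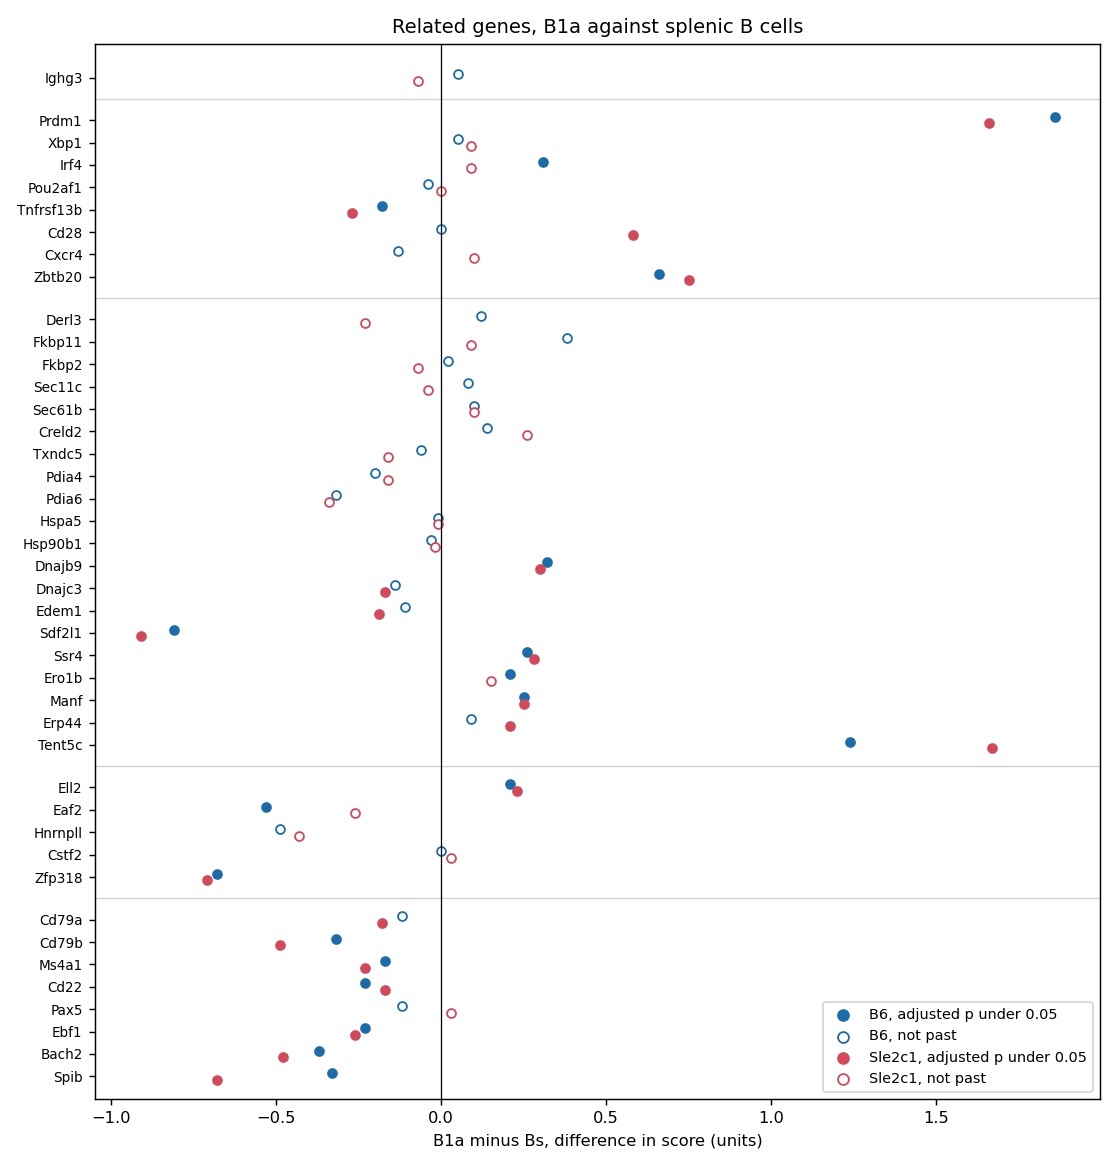
B1a minus Bs difference in deposited score (x axis, units) of the tested genes of 5 related lists (rows, grey lines between constant regions, plasma cell regulators, secretion, transcript processing and B cell identity), in B6 (blue) and Sle2c1 (red); filled points passed at an adjusted p under 0.05. Prdm1 and Tent5c lie at 1.24 to 1.86 units on the right and Sdf2l1, Zfp318 and Bach2 on the left.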

How the data were processed

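The authors deposited 1 table of probe set scores for 16 Affymetrix arrays (RNA amplified and labelled with NuGEN Ovation, per the labels). No label or header names the software, log base or scaling of the score, and no depth underlies it. Of 45101 probe sets, 64 are array controls and were left out. A probe set was tested if at least 4 arrays showed it above the 40th percentile of that array (35032 were). The floor of 0.495 is the middle value of these 16 percentiles. Symbols came from the platform annotation, updated by Entrez identifier through RefSeq (GRCm38.p6). Of 34958 probe sets with 1 gene, 99.42% were matched, while 932 had several genes and 9211 none. For lists, a gene's probe set with the highest mean was used. The 4 group means were fitted over 16 arrays with limma 3.58.1 in R 4.3.3, with p-values adjusted by Benjamini-Hochberg across the 35032 tested and a threshold of 0.05. The fit was tested on simulated data. Single values were also tested by exact permutation (scipy 1.17.1).

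Named are all member probe sets, the genes of smallest adjusted p in each list (up to 4), and the 3 genes most like each member. Members, lists and the floor were chosen with earlier results of these data known. A planned Ighd minus Ighm comparison had no Ighd probe set. Deviations of same-numbered Bs arrays from their group means correlated at 0.106 to 0.596, and replicate numbers were taken to pair the Bs arrays. B6_Bs 3 and 4 correlated best with the Sle2c1_Bs array of their own number, but B6_Bs 1 and 2 with another. The pairing of Bs arrays is therefore an assumption. For same-numbered B1a arrays the correlation was -0.00362 to 0.146, and no pairing was assumed.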

Additional observations from a re-analysis of the deposited data

Results flagged for a closer look

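In B6_B1a, replicate 3 read 3.30 units for Ighm (1427329_a_at) against 3.40 to 3.42 on the other arrays, a gap of 0.833 of the group's whole range. Groups with any array at the floor were left out of this check, which covered 48 groups of 4, and chance marks about 1 in 20 of them.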

How the results depend on the processing

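Of 20 single results that passed, 8 passed under every alternative and without any 1 array, and none changed sign. With 1 probe set per gene, which tests 8 in place of 19 probe sets, 4 passed between cell types in B6, 2 in Sle2c1 and 2 between the strains in B1a cells. Of all 22727 tested in that setting, 2050 were higher and 2783 lower in B1a than in Bs cells in B6. In Sle2c1 these were 2508 and 3348, so that the 2 of 8 there are near the share of all. Between the strains in B1a cells, 439 were higher and 329 lower in Sle2c1. The count of 4 strain calls in B1a cells became 2 at an adjusted p under 0.01, 2 with no floor, 2 with the floor at 1 unit, 2 without Sle2c1_B1a 4, B6_Bs 3 and Sle2c1_Bs 3, and 0 with the 8 B1a arrays alone. Over all 35032 tested, 657 were higher and 574 lower in Sle2c1 in the main fit. These became 321 and 208 at an adjusted p under 0.01, 342 and 315 with no floor, and 394 and 411 with the floor at 1 unit. Without the 3 bright arrays they were 779 and 509, and with the 8 B1a arrays alone 387 and 243. The cause of these changes was not tested. Leaving out single arrays gave 8 to 10 calls between cell types in B6 and 6 to 9 in Sle2c1. Between strains it gave 3 to 5 in B1a cells and 0 to 1 in Bs cells (Ighm 1427756_x_at without B6_Bs 1, adjusted p = 0.0333). For the interaction it gave 0 to 1 (Ighm 1452535_at without Sle2c1_B1a 2, adjusted p = 0.0496). Over all 35032, between cell types, 2446 to 3564 were then higher and 2320 to 5569 lower in B6. In Sle2c1 these were 3003 to 4209 and 3493 to 5764. Between strains they were 435 to 871 and 398 to 857 in B1a cells, and 25 to 60 and 4 to 24 in Bs cells. For the interaction they were 51 to 146 and 33 to 146. The within-array difference of Jchain and Ighm stayed between -1.26 and -1.13 in B6, -1.81 and -1.60 in Sle2c1 and -0.63 and -0.42 between strains in B1a cells, and between -0.08 and 0.02, on both sides of 0, in Bs cells.

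With replicate number as a block over all arrays the counts were 9, 7, 4, 0 and 0. Over all 35032 tested, the higher and lower counts were then 3267 and 4158, 3867 and 5147, 703 and 592, 33 and 6, and 65 and 54. Fitting the replicate block separately in B1a and in Bs cells was added after the data were seen. It gave 3 strain calls in B1a cells and 0 in Bs cells, Ighm 1452535_at being lost (limma adjusted p = 0.0521). Of all 35032 in that fit, 726 were higher and 584 lower in B1a cells, and 29 and 4 in Bs cells. As 4 pairs, Jchain minus Ighm gave an exact permutation p of 0.125 in both cell type comparisons and in B1a cells, the smallest that 4 pairs allow. Only the other strong Ighm probe set was tried in that comparison, since the rest had arrays at the floor. The number of arrays and the share of scores at the floor (34.2% to 45.3% an array) limit what low probe sets can show.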

Other observations

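The light chain constant genes were measured by probe sets annotated to several genes, which were looked up after the other values had been seen. The kappa gene Igkc stands with 4 other kappa entries on each of 3 probe sets. On 1427455_x_at the B6 means were 4.07 ± 0.0129 units (SD, n = 4) for B1a and 4.28 ± 0.0926 for Bs cells, against 4.00 ± 0.0719 and 4.23 ± 0.0472 for Sle2c1. The 3 probe sets fell by 0.20 to 0.23 units in B1a cells in B6 and by 0.22 to 0.26 in Sle2c1 (limma adjusted p 0.00158 to 0.0277). The probe set of the lambda gene Iglc1, shared with Iglv1, fell by 0.46 and 0.61 units, from 3.75 ± 0.149 and 3.72 ± 0.0608 units in Bs cells (adjusted p = 0.00197 and 0.000141). In score units these differences were smaller than those of Igha and Jchain. The scaling of the score is not known, so that differences at unlike levels may not compare in size. None of the 4 probe sets passed between the strains (smallest adjusted p = 0.294 in B1a cells and 1 in Bs cells).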
